A study of Homo sapiens with 6 samples.

Results

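Pancreatic ductal adenocarcinoma (PDAC) cells were studied under inhibitors of retinoic acid receptor γ (RARγ). Followed were 9 genes that take part in or respond to transforming growth factor β (TGFβ) and bone morphogenetic protein (BMP) signaling, by their transcripts. They are ID1, ID2, ID3, SMAD3, SMAD6, SMAD7, SKIL, TGFBI and TGFB1. They were chosen by name from the 53826 entries listed for each library, with earlier results of these data known. Shares of all entries printed beside their counts are therefore descriptions and do not test an excess. Each name occurs once, and all 9 genes reached 5 TPM, a transcript abundance scaled by length and library, in 1 library or more, as did 12412 entries in all, called the entries kept. PK-1 and Panc-1 are established human PDAC cell lines, and the study lists a copy number alteration of SMAD4 in PK-1 but none in Panc-1. Beside its Control, each line received LY2955303 (named RARγi-1) or MM11253 (named RARγi-2), RARγ antagonists of different structure, for 24 h. There was 1 library per condition, 6 in all, so the differences are descriptions without replicate error, and no test was run. Doses used for the RNA sequencing, and what the Control cells received, are not given in the sources used here, and a treatment label of both RARγi-2 libraries reads RARγi-1, so the libraries were assigned by their titles.

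TGFβ and BMP ligands bind paired receptor kinases at the cell surface, which phosphorylate receptor-activated SMAD proteins. The TGFβ branch runs through SMAD2 and SMAD3 and the BMP branch through SMAD1, SMAD5 and SMAD9, and the SMADs of both branches join SMAD4 to act on genes in the nucleus. ID1, ID2 and ID3 are classical BMP targets that block other helix-loop-helix factors, SMAD6 and SMAD7 are induced brakes on the receptors, SKIL encodes the corepressor SnoN, and TGFBI encodes a secreted matrix protein. In the pancreas TGFβ signaling is known for restraining growth of the duct epithelium, and SMAD4 is often lost in PDAC.

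In Panc-1 cells all 9 genes were lower than in the control with either inhibitor, as were 38.2% of all entries kept with both. By more than 2-fold, 5 of the 9 were lower with RARγi-1 (6.51% of all entries) and 7 with RARγi-2 (12%). SMAD6 left the measurable range, ID1 was 3.19-fold and 6.89-fold lower, and ID2 was 4.90-fold and 4.92-fold lower under the respective inhibitor. In PK-1 cells 2 and 3 of the 9 genes were lower by more than 2-fold, beside 5.2% and 13.5% of all entries. ID3 and TGFBI were lower by more than 2-fold in all 4 treated libraries, whereas SMAD3, SMAD7 and SKIL were above the control in both treated PK-1 libraries and below it in both treated Panc-1 libraries. With values at the floor taken as 1 TPM, none of the 9 genes was listed as higher than the control by more than 2-fold in a treated library. For ID2 in PK-1 with RARγi-2 this cannot be decided, because it stood at 2.0 TPM over a control of 1 TPM or less.

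The stretch of 250 bases before the annotated start of 5 of the genes is shown to place their levels beside the regulatory sequence next to them. The sequences are those of RefSeq on GRCh38.p14, read 5′ to 3′ on the strand of the gene. The windows are chr15:66701986-66702235 (plus strand) for SMAD6, chr3:170357465-170357714 (plus strand) for SKIL, chr20:31605039-31605288 (plus strand) for ID1, chr2:8681806-8682055 (plus strand) for ID2 and chr1:23559502-23559751 (minus strand) for ID3. SMAD6 is shown because it had the deepest loss in Panc-1, SKIL because it moved least there, and the ID genes because they share a family. Capitals mark matches to motifs in SMAD6 and SKIL, and in ID1 and ID2 the longest run that both windows hold.
SMAD6: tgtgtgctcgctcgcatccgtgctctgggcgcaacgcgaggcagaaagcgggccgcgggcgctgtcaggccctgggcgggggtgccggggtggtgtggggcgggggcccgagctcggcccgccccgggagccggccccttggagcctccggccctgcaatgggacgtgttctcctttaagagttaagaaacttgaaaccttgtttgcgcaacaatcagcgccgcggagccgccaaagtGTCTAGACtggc
SKIL: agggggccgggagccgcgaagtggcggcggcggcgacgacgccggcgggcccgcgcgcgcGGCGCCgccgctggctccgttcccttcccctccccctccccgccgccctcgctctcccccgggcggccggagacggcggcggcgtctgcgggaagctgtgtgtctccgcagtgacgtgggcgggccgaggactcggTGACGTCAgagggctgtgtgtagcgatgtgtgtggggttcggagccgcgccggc
ID1: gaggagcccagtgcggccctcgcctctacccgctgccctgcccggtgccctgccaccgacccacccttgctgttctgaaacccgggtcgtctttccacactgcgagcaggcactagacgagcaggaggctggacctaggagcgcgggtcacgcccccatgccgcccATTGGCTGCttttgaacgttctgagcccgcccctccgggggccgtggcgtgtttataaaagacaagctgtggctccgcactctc
ID2: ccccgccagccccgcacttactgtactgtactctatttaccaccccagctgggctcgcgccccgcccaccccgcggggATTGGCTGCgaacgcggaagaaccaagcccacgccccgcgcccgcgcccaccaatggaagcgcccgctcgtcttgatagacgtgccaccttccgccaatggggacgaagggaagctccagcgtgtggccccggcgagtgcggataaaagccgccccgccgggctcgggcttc
ID3: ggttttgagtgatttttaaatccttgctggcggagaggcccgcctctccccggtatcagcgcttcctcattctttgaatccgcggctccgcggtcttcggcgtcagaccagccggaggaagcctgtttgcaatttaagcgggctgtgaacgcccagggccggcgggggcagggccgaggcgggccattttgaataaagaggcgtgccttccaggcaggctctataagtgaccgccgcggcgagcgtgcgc

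The windows of all 9 genes were searched on both strands for 5 motifs. GTCTAGAC, the palindromic box bound by SMAD3 and SMAD4, was found in SMAD6 alone, where it begins 12 bases before the start. It occurs in 48 of 27305 promoter windows of the same length, or 0.176%. CAGACA, a shorter SMAD box, was found in none of the 9 windows and in 13.6% of all windows. GGCGCC, a GC-rich SMAD box, was found in SMAD3, SKIL and TGFBI, and in 16.1% of all windows. TGACGTCA, the cyclic AMP response element, was found in SKIL alone, beginning 54 bases before its start, against 1.77% of all windows. AGGTCA, a form of the half-site of retinoic acid receptors, was found in none of the 9 and in 12.1% of all windows. Other forms of that half-site were not searched, so their absence cannot be read from this. No motif overlapped another, and a match is a description of the letters only. The run shared by ID1 and ID2, ATTGGCTGC, was picked after the sequences had been seen. It lies 84 bases before the start of ID1 and 172 bases before that of ID2, is absent from the ID3 window, and occurs in 1.17% of all windows.

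Levels are given as TPM, which are scaled by transcript length and so can be compared between genes of a library. The authors deposited log2 values with no value below 1 TPM, and a gene listed at exactly 1 TPM is called at the floor here, its true level being 1 TPM or less. Between 13149 and 13652 entries per library lay above it. None of 15 genes of general use, such as GAPDH and TBP, was at the floor in any library. Changes are log2 of (TPM + 1) in the treated library minus the same in the control of its line. The pseudocount of 1 TPM understates changes of genes with few transcripts, and both inhibitors of a line were set against the same control library. As a yardstick, the robust standard deviation of RARγi-2 minus RARγi-1 over all entries kept, called the spread here, was 0.39 (log2) for PK-1 and 0.30 for Panc-1. It includes real differences between the inhibitors and leaves out what both libraries share against the control. The spread was measured neither between the lines nor between genes of a library. TPM values keep no read depth, so no counting error can be given. In bulk RNA, fewer cells expressing a gene and less RNA per cell cannot be told apart.

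The cell lines were checked against marker genes. KRT8, KRT18 and KRT19, cytokeratins of simple epithelium, were at 157 TPM or more in all 6 libraries. Of the other epithelial markers, KRT7 stood at 5663 TPM in the PK-1 control and 4.19 TPM in the Panc-1 control, and EPCAM at 578 and 13.4 TPM. CDH1, encoding E-cadherin, was at 170 TPM in the PK-1 control and at the floor in the Panc-1 control, and VIM, encoding vimentin, was at 41.7 TPM and 6291 TPM. In PK-1 both were higher with RARγi-1 and RARγi-2, CDH1 at 270.2 and 385 TPM and VIM at 92.1 and 139.98 TPM. Of 3 endothelial markers none was above the floor in any library, and the same held for PTPRC and CD3E of immune cells, for DCN, LUM and PDGFRB of fibroblasts and for CPA1 and CELA3A of acinar cells. The remaining markers of those lists were CD68, from 19.8 to 276 TPM, COL1A1, from 2.10 to 52.4 TPM, and PRSS1, at the floor in Panc-1 and at 1.06, 11.1 and 21.2 TPM in PK-1. COL1A1 was highest in the Panc-1 control, at 4.65 and 2.10 TPM in the treated Panc-1 libraries. The summed epithelial markers ran from 13507 to 22498 TPM for PK-1, and for Panc-1 they were 8418 TPM in the control and 1783 and 1484 TPM in the treated libraries. The sum in Panc-1 was carried by KRT8, KRT18 and KRT19, whereas EPCAM stood at 13.4, 19.4 and 9.18 TPM there, KRT7 at 4.19, 2.40 and 2.67 TPM, and CDH1 at the floor. The sum moved with the member genes in Panc-1, and its part in the result was not tested.

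**Figure D1:**
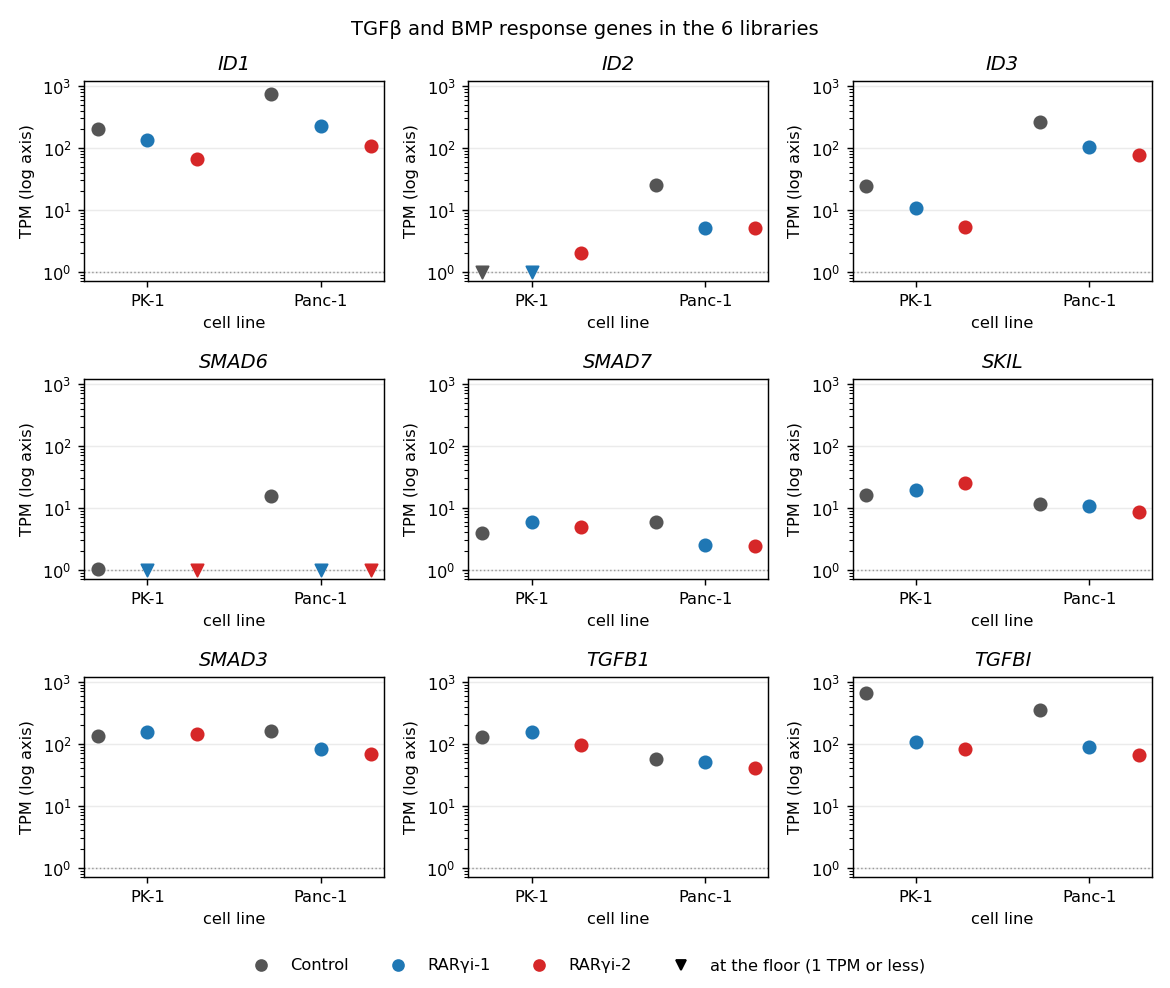
TPM (log axis) of each gene in the 6 libraries, 1 point per library, with grey for Control, blue for RARγi-1 and red for RARγi-2; triangles on the dotted line are values at the floor of 1 TPM or less. SMAD6 stands at 15.6 TPM in the Panc-1 control and at or near the floor in the other 5 libraries, and TGFBI is lower in all 4 treated libraries than in either control.

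Among the 9 genes, the untreated lines differed most in the BMP targets ID1, ID2, ID3 and SMAD6. ID1 stood at 200.4 TPM in the PK-1 control and 732 TPM in the Panc-1 control, ID3 at 24.6 and 262 TPM, ID2 at the floor and at 25.1 TPM, and SMAD6 at 1.01 and 15.6 TPM. These 4 genes were higher in Panc-1 by more than 2-fold, as were 17.3% of all entries kept. TGFB1, the ligand gene, was the only member lower in Panc-1 by more than 2-fold, at 56.6 TPM against 129.99 TPM in PK-1, where 16.1% of all entries kept were lower by as much. TGFBI was 1.87-fold lower in Panc-1, a log2 difference of -0.90. SMAD3, SMAD7 and SKIL differed by 0.24, 0.50 and -0.47 (log2, Panc-1 minus PK-1), of which the value for SMAD3 was smaller than the spread seen within either line. In the PK-1 control the order of levels was TGFBI, ID1, SMAD3, TGFB1, ID3, SKIL, SMAD7, SMAD6 and ID2. The neighbours SMAD3 and TGFB1, at 134 and 129.99 TPM, lay 0.04 (log2) apart. SMAD6 and ID2 lay at or next to the floor, so their order cannot be read. The order in the Panc-1 control was ID1, TGFBI, ID3, SMAD3, TGFB1, ID2, SMAD6, SKIL and SMAD7, and neighbours lay at least 0.41 (log2) apart, TGFBI and ID3 being the closest.

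The ID genes encode inhibitors of basic helix-loop-helix transcription factors and are used as readouts of BMP signaling. ID1 (Entrez gene 3397, chr20:31605289-31606510, plus strand) stood at 200.4, 134 and 65.9 TPM in the Control, RARγi-1 and RARγi-2 libraries of PK-1. In Panc-1 the corresponding levels were 732, 229 and 106 TPM. In both lines the control was highest and RARγi-2 lowest, and the Panc-1 library with RARγi-2 lay within the PK-1 range. The log2 changes were -0.58 and -1.59 for PK-1 and -1.67 and -2.77 for Panc-1. Of the 12412 entries kept, 87 had a lower value than ID1 with RARγi-2 in Panc-1, and 1540 did with RARγi-1 in PK-1.

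ID3 (Entrez gene 3399, chr1:23557926-23559501, minus strand) stood at 24.6, 10.8 and 5.27 TPM in PK-1 and at 262, 102 and 77.4 TPM in Panc-1. The lines did not overlap, the lowest Panc-1 library being above the PK-1 control. The log2 changes were -1.12 and -2.03 for PK-1 and -1.36 and -1.75 for Panc-1, so that ID3 was lower by more than 2-fold in each treated library. Between the lines the changes differed by -0.24 with RARγi-1 and 0.28 with RARγi-2 (log2, Panc-1 minus PK-1), less than the spread of either line. ID2 (Entrez gene 3398, chr2:8682056-8684461, plus strand) was at the floor in the control and RARγi-1 libraries of PK-1 and at 2.0 TPM with RARγi-2. In Panc-1 it went from 25.1 TPM in the control to 5.13 and 5.10 TPM, nearly the same level with both inhibitors. A decrease of ID2 in PK-1 could not have been seen, because its control was already at the floor.

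SMAD6 and SMAD7 are inhibitory SMADs, made in response to the signal and acting against its receptors. SMAD6 (Entrez gene 4091, chr15:66702236-66782849, plus strand), which mainly restrains the BMP branch, stood at 15.6 TPM in the Panc-1 control and at the floor with either inhibitor. Measured against the floor of 1 TPM in each treated library, it was at least 15.6-fold lower. In PK-1 it was at 1.01 TPM in the control and at the floor in both treated libraries. SMAD6 was therefore more than marginally above the floor in a single condition, and its window holds the palindromic box printed above. On the log2 of (TPM + 1) scale, 16 of 12412 entries had a lower value with RARγi-1 in Panc-1, and 44 with RARγi-2.

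SMAD7 (Entrez gene 4092, chr18:48919853-48950965, minus strand), which restrains both branches, had few transcripts in all libraries. It stood at 3.89, 5.87 and 4.84 TPM in PK-1 and at 5.93, 2.53 and 2.40 TPM in Panc-1. Both treated Panc-1 libraries lay below every PK-1 library, and both treated PK-1 libraries lay above their control. The log2 changes were 0.49 and 0.26 for PK-1, of which the latter was within the spread, and -0.97 and -1.03 for Panc-1. The Panc-1 value with RARγi-1 was on the other side of the 2-fold limit without a pseudocount, at -1.23. SKIL (Entrez gene 6498, chr3:170357715-170396849, plus strand), a corepressor that binds SMADs, stood at 16.1, 19.2 and 24.9 TPM in PK-1 and at 11.4, 10.6 and 8.65 TPM in Panc-1. The lines did not overlap, and every change of SKIL stayed under 2-fold. The log2 changes were 0.24 and 0.60 for PK-1 and -0.09 and -0.36 for Panc-1, and the RARγi-1 value of each line was within the spread.

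SMAD3 (Entrez gene 4088, chr15:67065602-67195169, plus strand) carries the TGFβ signal from the receptor to the nucleus. It stood at 134, 157 and 143 TPM in PK-1 and at 158, 82.4 and 68.0 TPM in Panc-1. All 3 PK-1 libraries and the Panc-1 control lay close together, and both treated Panc-1 libraries lay below them. The log2 changes were 0.23 and 0.10 for PK-1, both within the spread, and -0.93 and -1.21 for Panc-1. TGFB1 (Entrez gene 7040, chr19:41330323-41353922, minus strand), the gene of the ligand TGFβ1, stood at 129.99, 156 and 94.7 TPM in PK-1 and at 56.6, 50.8 and 40.0 TPM in Panc-1. All PK-1 libraries lay above all Panc-1 libraries. Its log2 changes were 0.26 and -0.45 for PK-1 and -0.15 and -0.49 for Panc-1, and the RARγi-1 value of each line was within the spread.

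TGFBI (Entrez gene 7045, chr5:136028988-136063818, plus strand), which encodes a secreted matrix protein named for its induction by TGFβ, had the lowest change of all members in PK-1. It stood at 651, 108 and 82.6 TPM in PK-1 and at 348, 88.2 and 66.7 TPM in Panc-1. The 4 treated libraries, from 66.7 to 108 TPM, lay below both controls and overlapped between the lines, although the controls differed 1.87-fold. It was 6.03-fold and 7.89-fold lower than control in PK-1 and 3.95-fold and 5.22-fold lower in Panc-1. With RARγi-1 in PK-1, 15 of 12412 entries had a lower log2 value than the -2.58 of TGFBI.

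**Figure D2:**
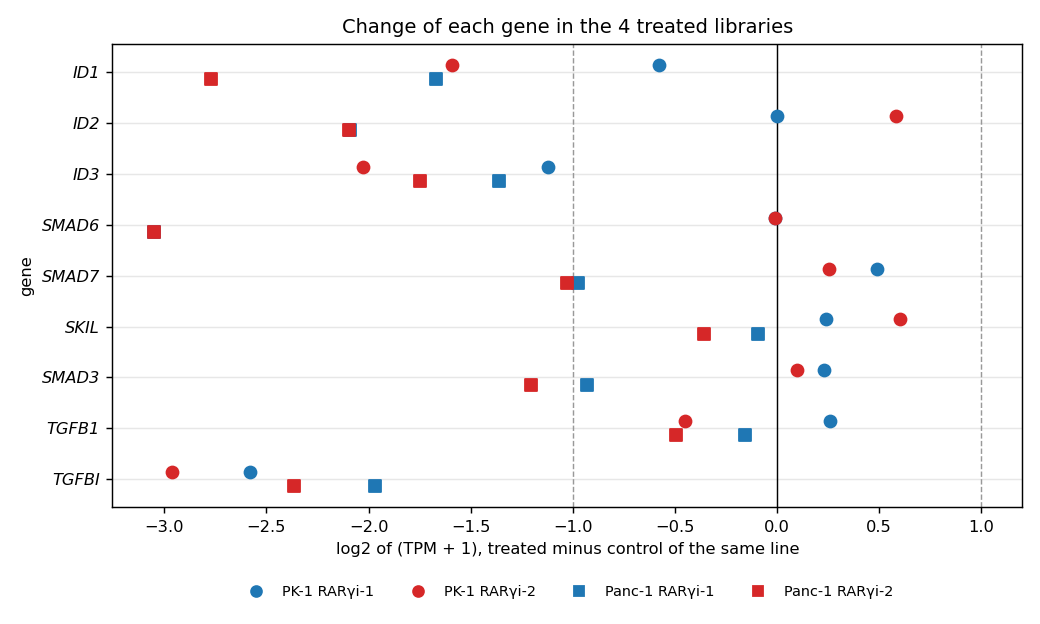
Log2 of (TPM + 1) in the treated library minus the control of its line for each gene, with circles for PK-1, squares for Panc-1, blue for RARγi-1 and red for RARγi-2; dashed lines mark 2-fold. All Panc-1 squares lie left of 0, while the PK-1 circles of SMAD7, SKIL and SMAD3 lie right of 0; the SMAD6 points of a line coincide, and those in Panc-1 are limits set by the floor.

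Counted over the 9 genes, 2 were lower by more than 2-fold with RARγi-1 in PK-1 (ID3 and TGFBI), where 5.2% of all entries kept were lower by as much. With RARγi-2 in PK-1 there were 3 (ID1, ID3 and TGFBI), against 13.5% of all entries. In Panc-1 there were 5 with RARγi-1 (ID1, ID2, ID3, SMAD6 and TGFBI), against 6.51%, and 7 with RARγi-2 (the same 5 with SMAD3 and SMAD7), against 12%. After rescaling the libraries by the median of ratios, SMAD3 and SMAD7 passed the limit with RARγi-1 as well, at -1.02 and -1.04 (log2). The shares of all entries higher by more than 2-fold, where no member was counted and ID2 in PK-1 with RARγi-2 is undecided, were 9.91% and 12.9% for PK-1 and 7.86% and 9.02% for Panc-1. The median log2 change of the 9 genes was 0 and -0.01 for PK-1 and -1.36 and -1.75 for Panc-1, beside 0.13 and 0 and 0.05 and 0 over all entries kept. The PK-1 medians are the values of ID2 and SMAD6, which had no room for a decrease there and could not be counted as lower. The medians are therefore no measure of a difference between the lines. With both inhibitors, 2 members were lower by more than 2-fold for PK-1 and 5 for Panc-1, against 4.99% and 6.13% of all entries kept. No member was higher by more than 2-fold with both, against 7.95% of entries for PK-1 and 5.95% for Panc-1. The 2 genes below the 2-fold limit in all 4 treated libraries, ID3 and TGFBI, stand beside 2.19% of all entries kept, and 2.71% were higher by as much in all 4. Lower by any amount in all 4 were 4 members (ID1, ID3, SMAD6 and TGFBI) and 23.4% of all entries kept. SMAD6 is counted there through 1.01 TPM over the floor in PK-1, and after rescaling its value with RARγi-2 was 0.02 (log2), which leaves 3 members. Higher by any amount in all 4 were 30% of entries and no member.

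The lines were compared gene by gene. The change in Panc-1 minus the change in PK-1 was negative with both inhibitors for ID1 (-1.09 with RARγi-1 and -1.18 with RARγi-2), SMAD3 (-1.16 and -1.30), SMAD7 (-1.46 and -1.28), SKIL (-0.33 and -0.96) and TGFB1 (-0.42 and -0.04). For TGFBI it was positive, at 0.61 and 0.60. For ID3 it was -0.24 and 0.28. For ID2 (-2.09 and -2.68) and SMAD6 (-3.04 with both) it is no measure of a difference between the lines, since the PK-1 controls, at the floor and at 1.01 TPM, left no room for a decrease. Of all entries kept, 6.88% were above the control with both inhibitors in PK-1 and below it with both in Panc-1, as 3 members were (SMAD3, SMAD7 and SKIL). The opposite pattern was seen for 5.51% of entries and for no member. These 3 directions were also seen without a pseudocount, with one of 0.1 TPM and after rescaling.

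**Figure D3:**
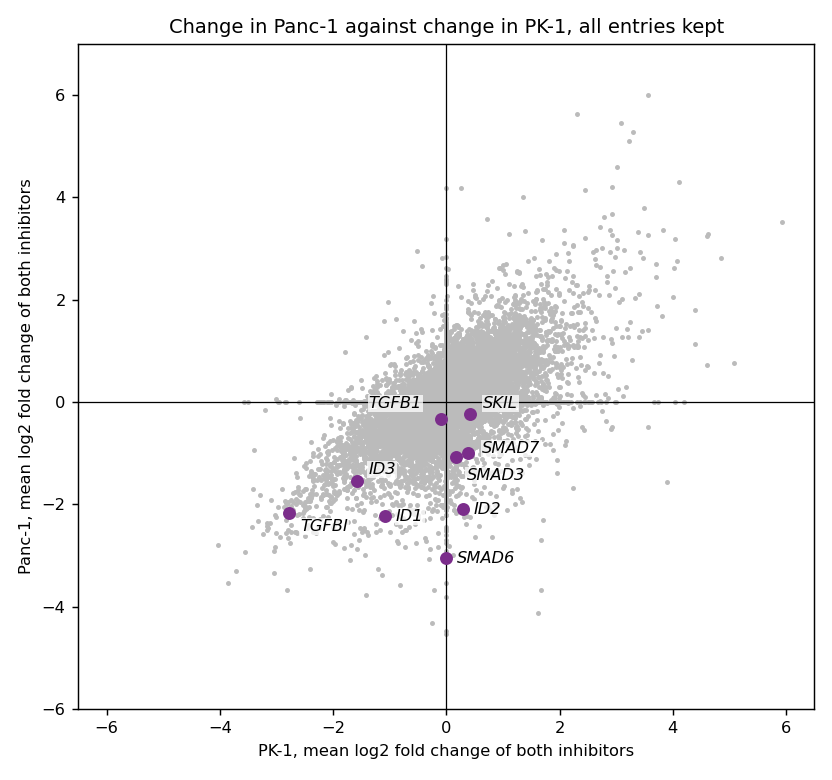
Mean log2 change of both inhibitors in PK-1 (x axis) against the same in Panc-1 (y axis); grey points are the 12412 entries kept and purple points the 9 genes. ID3 and TGFBI lie among entries low in both lines, whereas SMAD6, ID2, SMAD3 and SMAD7 lie below 0 on the Panc-1 axis and near or right of 0 on the PK-1 axis. SMAD6 and ID2 had no room for a decrease in PK-1.

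The inhibitors are set side by side with the reservation that their doses for these libraries are not known. RARγi-2 minus RARγi-1 was negative for 6 of the 9 genes for PK-1 and 8 for Panc-1, where 62.9% and 61.4% of all entries kept were negative. After rescaling it was negative for 5 and 6 of the 9, SMAD3 in PK-1 and ID2 and SMAD7 in Panc-1 having turned to 0.02, 0.07 and 0.01 (log2). ID1 was the member with the largest difference in each line, at -1.01 for PK-1 and -1.10 for Panc-1, and the only one past 2-fold. Entries lower by as much made up 4.79% of those kept for PK-1 and 2.19% for Panc-1, and entries higher by as much, where no member was, 1.38% and 0.725%. The PK-1 difference of ID1 was -0.86 after rescaling. ID3 differed by -0.91 for PK-1 and -0.39 for Panc-1, and TGFBI by -0.38 and -0.40. ID2 and SMAD7 in Panc-1 differed by -0.01 and -0.05, within the spread.

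The rest of the pathway was followed with 7 role lists, which hold 71 genes beside the 9. Of these, 59 reached 5 TPM in some library. Among the 59, 4 were lower in PK-1 by more than 2-fold under RARγi-1 and 12 under RARγi-2, beside 5.2% and 13.5% of all entries, while 12 and 15 were lower in Panc-1, beside 6.51% and 12%. In PK-1, 11 and 6 were higher by more than 2-fold, beside 9.91% and 12.9%, and in Panc-1 5 and 4, beside 7.86% and 9.02%. Their median log2 changes of 0.04 and 0 for PK-1 and 0 and -0.29 for Panc-1 lay closer to those of all entries than the medians of the 9 genes in Panc-1 did.

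The core relay of the pathway differed between the lines in SMAD4, the partner of all receptor-activated SMADs. SMAD4 was at the floor in all 3 PK-1 libraries and stood at 4.85, 6.59 and 7.62 TPM in Panc-1. Of the 7 SMAD genes kept, those lower by more than 2-fold were SMAD6 with RARγi-1, and SMAD6, SMAD3 and SMAD7 with RARγi-2, both in Panc-1, so each of them is a member. Of all entries kept, 6.51% and 12% were lower by as much in Panc-1. TGFBR1, the kinase that phosphorylates SMAD2 and SMAD3, ran from 14.3 to 17.9 TPM in PK-1 and from 7.64 to 8.79 TPM in Panc-1. TGFBR2, its partner, stood at 39.6, 32.6 and 22.2 TPM in PK-1 and at 19.2, 20.02 and 12.7 TPM in Panc-1. The BMP receptor genes BMPR1A and BMPR2 stayed within 2-fold of control in every treated library on the log2 of (TPM + 1) scale. ACVR1, a further BMP receptor kinase, was higher than control in both lines, going from 12.6 to 31.1 and 36.4 TPM with the inhibitors in PK-1, and from 22.0 to 56.4 and 56.6 TPM in Panc-1. ACVR1 was the only one of the 8 receptor genes kept that was past 2-fold with both inhibitors of a line and reached 10 TPM. ENG, encoding the co-receptor endoglin and named after its values were seen, was lower with RARγi-2, by log2 changes of -2.39 for PK-1 and -2.45 for Panc-1.

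Of the 10 ligand genes, of which TGFB1 is a member, 4 were lower and 1 was higher by more than 2-fold with either inhibitor in Panc-1. In PK-1, 3 were lower with either, while 2 were higher with RARγi-1 and 1 with RARγi-2. Of all entries kept, 6.51% (RARγi-1) and 12% (RARγi-2) were lower and 7.86% and 9.02% higher in Panc-1. The shares in PK-1 were 5.2% and 13.5% lower and 9.91% and 12.9% higher. BMP6 and BMP4 differed from control in opposite directions. BMP6 stood at 2.59, 17.3 and 20.1 TPM in PK-1 and at 54.1, 142 and 155 TPM in Panc-1, so it was higher than control in each treated library. ID1 and ID3 were lower than control in each treated library, and ID2 was lower in Panc-1. BMP4 stood at 29.96, 13.1 and 5.50 TPM in PK-1 and was at the floor throughout Panc-1. INHBB, a subunit of activin, was at the floor throughout PK-1 and stood at 22.8, 8.15 and 6.54 TPM in Panc-1. TGFB2 and GDF11, under 10 TPM in every library and named after their values were seen, were lower by more than 2-fold in all 4 treated libraries. Their log2 changes were -2.15 and -2.22 (TGFB2, at 1.11 TPM and at the floor when treated) and -1.27 and -1.70 (GDF11) for PK-1. For Panc-1 they were -2.22 with both (TGFB2, at the floor when treated) and -1.04 and -1.61 (GDF11).

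Of the 9 extracellular antagonists and carriers kept, 3 and 5 were lower by more than 2-fold in Panc-1 with RARγi-1 and RARγi-2 and 0 were higher. In PK-1, 1 and 3 were lower and 1 was higher with each. Of all entries kept, 6.51% and 12% were lower and 7.86% and 9.02% higher in Panc-1. The shares in PK-1 were 5.2% and 13.5% lower and 9.91% and 12.9% higher. NOG, which encodes the BMP antagonist noggin and is itself a BMP target, stood at 27.1, 7.07 and 4.65 TPM in Panc-1 and at or near the floor in PK-1. LTBP2, of the latent TGFβ binding family, stood at 87.6, 24.5 and 8.07 TPM in Panc-1 and at 5.09, 2.05 and 1.14 TPM in PK-1. THBS1, encoding thrombospondin-1, which can release latent TGFβ, stood at 270.1, 49.9 and 16.9 TPM in PK-1 and at 16.3, 3.08 and 1.75 TPM in Panc-1, and so was lower by more than 2-fold in all 4 treated libraries. LTBP4 was higher than control in PK-1, with log2 changes of 1.35 and 1.44, while its Panc-1 values were 0.59 and -0.26.

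Among the intracellular regulators and the TGFβ targets, some differed between the lines as SMAD3 did and others did not. Of the 13 intracellular regulators, of which SKIL is a member, 2 were lower and 1 was higher by more than 2-fold with either inhibitor in Panc-1. In PK-1, 1 was higher with RARγi-1 and 1 lower with RARγi-2. Of all entries kept, 6.51% and 12% were lower and 7.86% and 9.02% higher in Panc-1. The shares in PK-1 were 5.2% and 13.5% lower and 9.91% and 12.9% higher. PMEPA1, a TGFβ target that dampens SMAD2 and SMAD3, stood at 68.4, 60.0 and 74.6 TPM in PK-1, within the spread of its control, and at 66.7, 22.6 and 22.0 TPM in Panc-1. TGIF2, a SMAD corepressor, had log2 changes of -0.89 and -1.75 for PK-1 and -1.39 and -1.95 for Panc-1. ZFYVE9, encoding the receptor anchor SARA, had log2 changes of 0.88 and 0.39 for PK-1 and 1.25 and 1.05 for Panc-1. CCN2, a matrix-associated growth factor, stood at 229, 50.4 and 47.0 TPM in Panc-1 and at 4.03 TPM, 2.22 TPM and the floor in PK-1. IL11, a cytokine, was higher than control in PK-1, with log2 changes of 2.79 and 3.01, and its Panc-1 values were -0.38 and -0.67. ANGPTL4, a secreted lipase inhibitor, had log2 changes of 1.14 and -1.10 for PK-1 and -1.56 and -2.54 for Panc-1.

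Over the whole lists, the 22 TGFβ targets kept had 7 genes lower by more than 2-fold with RARγi-1 and 8 with RARγi-2 in Panc-1, and 2 and 7 in PK-1. Higher by more than 2-fold were 1 and 0 of them in Panc-1, and 6 and 2 in PK-1, where their median was 0.28 and 0.02 (log2). Of the 22, TGFBI, SMAD7, SKIL and TGFB1 are members. TGFBI is in every count of lower TGFβ targets, and SMAD7 in that with RARγi-2 in Panc-1. The 10 BMP targets kept had 5 and 6 lower in Panc-1, and 1 and 2 in PK-1, and 1 was higher in each treated library. The shares of all entries are those given for the 59 genes. The medians of the BMP targets were -1.17 and -1.39 (log2) in Panc-1 and 0 and 0.10 in PK-1, where ID2, SMAD6 and NOG had no room for a decrease. Of the 10, 5 are members. Of the 5 that are not, NOG was the one lower by more than 2-fold in Panc-1. The others had log2 changes there of 0.96 and 1.06 (MSX1), -0.37 and 0.06 (MSX2) and 1.34 and 0.58 (HEY1), with BAMBI at the floor, MSX1, MSX2 and BAMBI being named after their values were seen. HEY1, a BMP and Notch target, stood at 31.9, 82.0 and 90.2 TPM in PK-1 and at 4.10, 11.9 and 6.64 TPM in Panc-1.

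**Figure D4:**
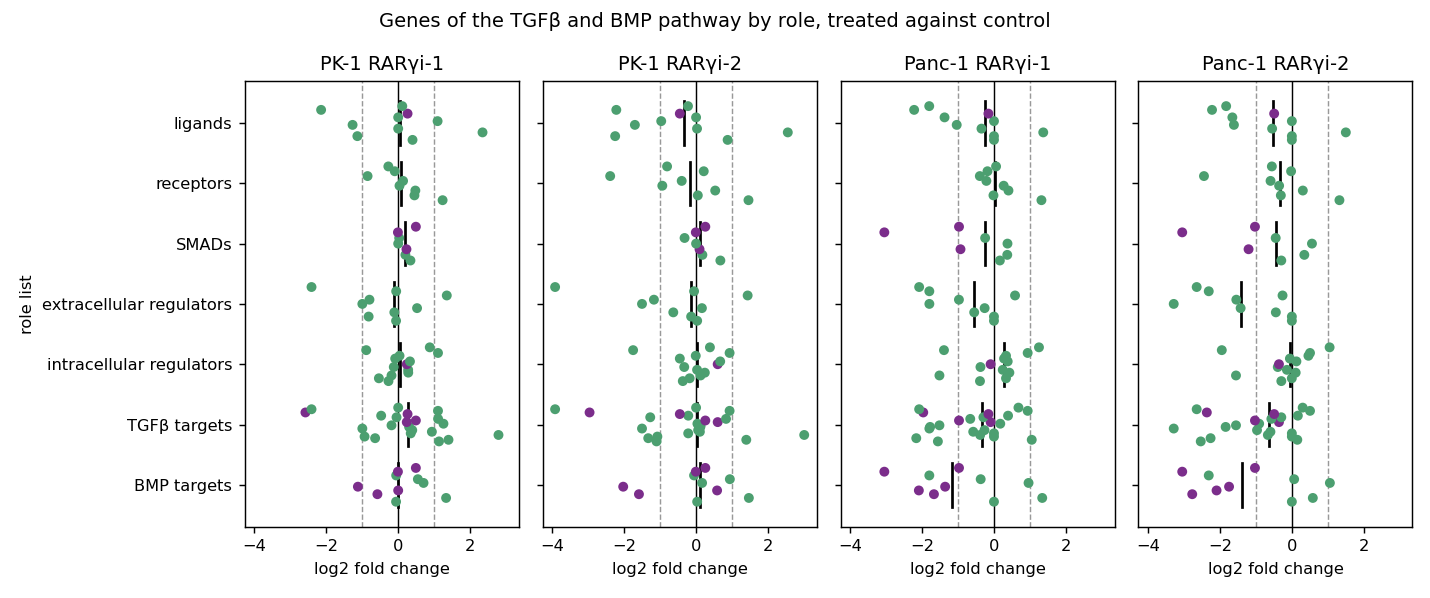
Log2 change of each pathway gene that reached 5 TPM, by role list (rows) and treated library (panels), with the 9 genes in purple, the other genes in green, the list median as a black bar and 2-fold as dashed lines; a gene in several lists is drawn in each. The BMP target median lies at -1.17 and -1.39 in Panc-1 and near 0 in PK-1, where ID2, SMAD6 and NOG had no room for a decrease.

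The entries whose pattern was most like that of ID1, SMAD7 and TGFBI were found by the Euclidean distance over 5 values, the 4 log2 changes and the difference between the controls, among 10629 entries that reached 10 TPM. For ID1, SLC29A1 (distance 0.75) and FNDC10 (0.81) were the closest. For SMAD7 they were PDK2 (0.35), ACYP1 (0.36) and TCIRG1 (0.39). For TGFBI they were ZNF367 (0.53), ATAD2 (0.59) and GINS2 (0.64).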

How the data were processed

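Libraries were made from total RNA of PK-1 and Panc-1 cells with a stranded mRNA kit, 1 library for each of 6 conditions. The authors deposited log2 TPM values per gene, with 1 TPM as the lowest value, as read from the values. The genome build is hg38 in the submitters' processing notes, and the aligner, counting method and annotation are not given in the sources used here. Libraries were grouped by title.

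The log2 values were returned to TPM, and log2 of (TPM + 1) was subtracted between libraries, over entries that reached 5 TPM in any library. With 1 library per condition, values and counts past 2-fold are descriptions. The spread is 1.4826 times the median absolute deviation of RARγi-2 minus RARγi-1. Genome positions and promoter sequences are those of RefSeq on GRCh38.p14, in which all 9 genes were matched by Entrez ID. Python 3.11.15, numpy 2.4.6, pandas 2.3.3 and matplotlib 3.10.9 were used, and the fold change and motif code was tested on simulated data.

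The members, role lists, marker lists and motifs were chosen with earlier results of these data known. Named from the role lists were genes past 2-fold in 1 direction with both inhibitors of a line and at 10 TPM in some library, at most 5 per list by mean absolute change, together with SMAD4, TGFBR1, TGFBR2, BMPR1A and BMPR2. Alternatives were other pseudocounts, rescaling, other minimum levels and other fold limits. The entries most like ID1, SMAD7 and TGFBI were to be the 3 nearest for each, of which 1 is not reported here.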

Additional observations from a re-analysis of the deposited data

Results flagged for a closer look

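For 3 of the 9 genes both treated PK-1 libraries lay above their control and both treated Panc-1 libraries below theirs. The mean log2 change in Panc-1 minus that in PK-1 was -1.23 for SMAD3, -1.37 for SMAD7 and -0.65 for SKIL. This pattern was seen for 6.88% of all entries kept. The PK-1 values of SMAD3 (0.23 and 0.10), of SMAD7 with RARγi-2 (0.26) and of SKIL with RARγi-1 (0.24) were within the spread of 0.39, as was SKIL with RARγi-1 in Panc-1 (-0.09, spread 0.30). Of the 59 other pathway genes kept, 7 showed the same opposition. IL11, the only one of them named above, had a difference of -3.43. The difference between the lines was not tested. Each line has 1 library per condition, and its inhibitors share a control.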

How the results depend on the processing

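Of the 24 member values past 2-fold over 7 comparisons, all 24 kept their sign under the other pseudocounts and after rescaling, and 23 stayed past 2-fold after rescaling. Values under 6 TPM, as for SMAD7 and the treated ID2, rest on few transcripts, and the depth behind them is unknown. No paired analysis was possible because there was 1 library per condition. A fit that takes the cell lines as replicates of a treatment was not run.

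Shares of all entries were worked out only for the 2-fold limit, the pseudocount of 1 TPM and the minimum of 5 TPM. The counts below have no such share beside them. They show how far each count moved and cannot be set against all entries. Without a pseudocount, or with one of 0.1 TPM, 2 members in place of 1 were lower with RARγi-2 than RARγi-1 in PK-1, and after rescaling 0 were, ID1 going from -1.01 to -0.86. Without a pseudocount 7 in place of 4 wider genes were lower with RARγi-1 in PK-1. A minimum of 10 TPM in each line keeps 6 members and 30 wider genes. Members lower in Panc-1 were then 3 and 4, those lower in PK-1 stayed at 2 and 3, and those higher in the Panc-1 control were 2. Wider genes lower were then 1 and 5 for PK-1, with 5 and 8 for Panc-1. At a limit of 1.5-fold, 1 member was higher with RARγi-2 in PK-1, 2 were lower in the Panc-1 control, and 3 were lower with RARγi-2 than RARγi-1 in PK-1. Wider genes were then lower in 11 cases with RARγi-1 in PK-1, higher in 12 with RARγi-2 in PK-1 and higher in 9 with RARγi-1 in Panc-1. At 3-fold, 1 member was lower with RARγi-1 in PK-1, 0 were lower in the Panc-1 control, and 0 differed between the inhibitors in either line. Wider genes were then lower in 2 (RARγi-1) and 6 (RARγi-2) cases in PK-1 and 7 (RARγi-1) in Panc-1, and higher in 2 and 2 cases for PK-1, with 0 and 0 for Panc-1.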

Other observations

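The genes beside SMAD4 on chromosome 18 were looked up after SMAD4 had been seen at the floor in PK-1. In the RefSeq order of protein-coding genes, ELAC1 lies next to it on one side and MEX3C on the other. ELAC1 stood at 5.61, 6.45 and 6.14 TPM in the PK-1 libraries, and MEX3C at 13.2, 21.6 and 18.9 TPM, so both neighbours were above the floor in each PK-1 library in which SMAD4 was not. ME2, the next gene beyond ELAC1, stood at 23.6, 29.3 and 30.3 TPM there. In Panc-1 these 3 genes were measured between 2.42 TPM (ELAC1 in the control) and 30.4 TPM (ME2 with RARγi-1).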
